A study of Mus musculus with 10 samples.

Results

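The neuronal intermediate filament genes *Nefh*, *Nefm*, *Nefl* and *Ina* were examined in the prefrontal cortex (PFC) of *Zbtb16* knockout (KO) and wild-type (WT) mice. They are 4 of the 22000 genes in the deposited count table, all 4 passed the filter on low counts, and 14344 genes were tested in all. The group was picked from genes whose KO against WT values were known: *Nefh* was chosen by its lower level in KO mice, and the other 3 genes joined it because they encode the subunits it assembles with. The *Nefh* contrast and every ratio that holds *Nefh* are therefore given as descriptions, without a test.

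The data are RNA-seq counts, with 1 stranded mRNA library per mouse, from 5 KO and 5 WT mice that the labels give as male and 7 weeks old. KO mice were homozygous for the luxoid (*lu*) allele of *Zbtb16*, a nonsense point mutation carried by the B6.C3-Zbtb16 lu/J line, a germline change that every cell carries. The allele changes a codon and leaves the gene in place. *Zbtb16* transcript was at 42.1 to 52.8 CPM in KO and 70.7 to 88.4 CPM in WT mice, so it was lowered and not lost (CPM are counts scaled to a common library size, after TMM normalization). Libraries held 30220122 to 51231439 counts, and 3 counts, taken as the floor of detection, correspond to 0.0586 to 0.0993 CPM, far below each value given for the 4 genes. The RNA integrity number (RIN) was 9.5 to 9.8 in 3 KO and 3 WT mice and 8.1 to 8.3 in the other 2 of each. KO mouse 3 goes against its label, as 1 count fell on *Uty*, *Kdm5d*, *Eif2s3y* and *Ddx3y* of the Y chromosome together in this library labelled male, against 4376 to 8182 in the others. KO mouse 5 had the lowest RIN (8.1) and the deepest library, and stood apart for *Nefh* and *Ina*. Values are given without these mice where they bear on a result.

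Neurofilaments are the intermediate filaments of neurons and fill large axons, where they set caliber and with it conduction speed. *Nefl* encodes the light subunit (NF-L), which forms the core of the filament. *Nefm* and *Nefh* encode the medium and heavy subunits (NF-M and NF-H), whose long tails project from the filament and carry Lys-Ser-Pro (KSP) repeats that kinases phosphorylate. *Ina* encodes alpha-internexin, the fourth subunit in the central nervous system. All share a coiled-coil rod, and NF-H is the last subunit to appear as axons mature.

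The 4 coding sequences show what the subunits share and where *Nefh* differs. All coding positions are counted from the first base of the start codon, in the GENCODE M21 transcripts of the GRCm38 build. The end of the rod is printed first for 3 of the genes, because it is the stretch that the subunits have in common, with its last 18 bases in capitals.
Nefh rod end: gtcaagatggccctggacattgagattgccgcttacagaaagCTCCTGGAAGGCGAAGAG
Nefl rod end: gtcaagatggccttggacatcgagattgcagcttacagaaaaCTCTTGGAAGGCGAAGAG
Ina rod end: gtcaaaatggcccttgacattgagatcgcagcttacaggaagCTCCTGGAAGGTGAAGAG

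Over these 60 bases the pairs of these 3 genes were 85.0% to 91.7% identical, and the 20 codons encoded the same 20 residues in each. The stretches lie at coding bases 1165 to 1224 in *Nefh*, 1135 to 1194 in *Nefl* and 1153 to 1212 in *Ina*. Beyond the rod the genes part. After the rod end *Nefh* has 682 of its 1090 codons (62.6%), *Nefm* 441 of 848 (52.0%), *Nefl* 145 of 543 (26.7%) and *Ina* 97 of 501 (19.4%). A stretch of the tail is printed for the 2 subunits with KSP motifs, with the codons of each motif in capitals, because the number of motifs is what sets *Nefh* apart.
Nefh tail, coding bases 1561 to 1680: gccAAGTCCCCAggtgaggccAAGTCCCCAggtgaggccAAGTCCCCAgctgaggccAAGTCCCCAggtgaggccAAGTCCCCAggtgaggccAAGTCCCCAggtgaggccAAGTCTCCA
Nefm tail, coding bases 1402 to 1521: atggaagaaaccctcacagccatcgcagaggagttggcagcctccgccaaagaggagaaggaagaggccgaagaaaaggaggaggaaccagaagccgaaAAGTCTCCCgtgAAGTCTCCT

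The *Nefh* stretch holds 7 KSP motifs and the *Nefm* stretch 2. In the whole coding sequence *Nefh* has 51, *Nefm* has 4, and *Nefl* and *Ina* have 0, and each motif lies after the rod end. The transcript with the lower level in KO mice is thus the one that encodes the repeat-rich tail.

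*Nefh* (ENSMUSG00000020396.8) lies on the minus strand of chromosome 11 from 4938754 to 4948064 and has 4 exons, which share no base with an exon of another gene. *Nefm* (ENSMUSG00000022054.11, minus strand, 68082590 to 68124846) and *Nefl* (ENSMUSG00000022055.7, plus strand, 68083863 to 68089095) overlap on chromosome 14. Of the 3380 exonic bases of *Nefl*, 1108 (32.8%) are covered by an exon of *Nefm* on the opposite strand. *Ina* (ENSMUSG00000034336.3, plus strand, chromosome 19 from 47014698 to 47025327) shares 456 of 3240 exonic bases (14.1%) with *Nt5c2* on the opposite strand. Whether counting used the strand is not given in the sources used here, so the levels of *Nefm*, *Nefl* and *Ina* are uncertain to that extent, and that of *Nefh* is not touched by it. The repeats cost *Nefh* little in unique mapping, since 42 of its 3894 windows of 101 bases (1.08%), the read length, occur more than once in the transcript.

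*Nefh* was lower in KO than in WT mice. It was at 69.9, 65.8, 66.5, 67.9 and 47.3 CPM in KO mice 1 to 5, and at 85.8, 87.4, 75.1, 82.0 and 79.2 CPM in WT mice 1 to 5. The groups did not overlap, and 4 KO mice lay within 65.8 to 69.9 CPM while KO mouse 5 stood well below them. The mean was 63.5 ± 9.18 CPM (SD, n = 5) in KO and 81.9 ± 4.99 CPM (SD, n = 5) in WT mice, or 77.5% of the WT level. Without KO mouse 5 the KO mean was 67.5 ± 1.84 CPM (SD, n = 4), 82.4% of WT, and without KO mouse 3 it was 76.6% of WT. In the fit across all genes (edgeR, with genotype and 3 surrogate variables, which stand for unrecorded differences between libraries), the log2 fold change was -0.27 with a standard error of 0.04. Without surrogate variables the log2 fold change of *Nefh* was -0.37 with a standard error of 0.09, so its size and error depended on them. Since *Nefh* was chosen on this contrast, no p is attached to it. Among all genes tested, 0.683% had every KO mouse below every WT mouse. Within the mice of high RIN the log2 ratio of the group means was -0.31 and within those of low RIN -0.47, the class that holds KO mouse 5. In bulk tissue, fewer cells of a type and less RNA per cell cannot be told apart.

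*Nefm*, the partner of *Nefh* in forming tails, was not lower. It was at 349, 318, 313, 323 and 256 CPM in KO mice 1 to 5 and at 307, 354, 283, 280 and 278 CPM in WT mice 1 to 5. The groups overlapped widely, KO mouse 5 had the lowest value of all 10 mice, and WT mouse 2 the highest. The means were 312 ± 34.0 and 300.5 ± 32.2 CPM (SD, n = 5 each). In the same fit it had a log2 fold change of 0.16, with a standard error of 0.04 and a Benjamini-Hochberg adjusted p of 0.0856 by the quasi-likelihood test of edgeR over all genes tested. With DESeq2 and the same surrogate variables the adjusted p was 0.0164, without KO mouse 5 it was 0.04 in edgeR, and over the alternatives it lay between 0.0153 and 0.917. Without surrogate variables the log2 fold change of *Nefm* was 0.05.

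*Nefl*, the core subunit and the most abundant of the 4 transcripts, was at 596, 515, 538, 552 and 474 CPM in KO mice 1 to 5. In WT mice 1 to 5 it was at 536, 566, 498, 516 and 513 CPM. Both the highest and the lowest value belonged to KO mice, and the groups overlapped. The means were 535 ± 45.3 and 526 ± 26.2 CPM (SD, n = 5 each). The fitted log2 fold change was 0.10, its standard error 0.03 and the adjusted p 0.159 by edgeR. Without surrogate variables it was 0.02 on the log2 scale.

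*Ina* was at 272, 253, 265, 257 and 188 CPM in KO mice 1 to 5 and at 248, 262, 252, 260 and 249 CPM in WT mice 1 to 5. The WT mice were tightly grouped, the other 4 KO mice lay around them, and KO mouse 5 was far below. The means were 247 ± 33.8 and 253.9 ± 6.36 CPM (SD, n = 5 each), and the KO mean without KO mouse 5 was 261.7 ± 8.49 CPM (SD, n = 4). The fitted log2 fold change was 0.03, its standard error 0.04 and the adjusted p 0.836 by edgeR, and the sign turned in the fit without surrogate variables (-0.04).

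Of the 3 genes that were not chosen on the contrast, 0 passed the threshold of 0.05 in edgeR's test, where 121 of the 14344 genes tested (0.844%) passed, 35 of them lower in KO mice (0.244%). *Nefm* and *Nefl* had an unadjusted p under 0.05 in edgeR's fit across all genes, both with higher fitted levels in KO mice, and DESeq2 called *Nefm* alone of the 3. An unadjusted p under 0.05 was reached by 1522 of the genes tested (10.6%), and DESeq2 called 229 (1.6%).

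**Figure D1:**
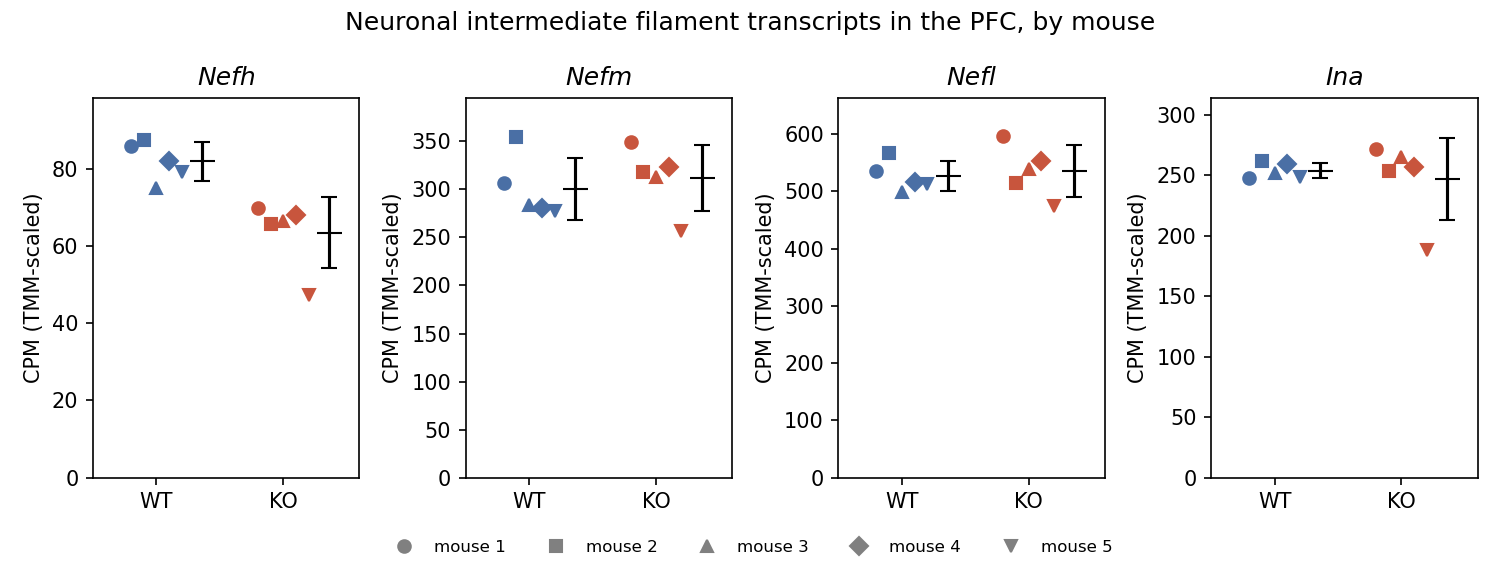
CPM of the 4 transcripts in each mouse, with WT mice in blue, KO mice in red, a symbol for each mouse number (which joins different mice), and the mean ± SD of 5 mice in black. The KO values of *Nefh* lie at 47.3 to 69.9 CPM, below the WT values of 75.1 to 87.4, while both groups overlap for the other 3 genes.

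Per length, *Nefl* was the highest and *Nefh* the lowest of the 4 transcripts in WT mice. On the scale of CPM per kilobase of the whole mRNA, the level was 156 ± 7.74 for *Nefl*, 90.1 ± 9.66 for *Nefm*, 78.4 ± 1.96 for *Ina* and 20.5 ± 1.25 for *Nefh* (SD, n = 5 WT mice each). *Nefl* and *Nefh* stood clear of their neighbours, with ranges of 147 to 168 and 18.8 to 21.9. *Nefm* (83.3 to 106) and *Ina* (76.5 to 80.8) did not overlap on this scale, but with only the bases that no other gene covers *Ina* was at 89.0 to 94.0 and the 2 ranges overlapped. In KO mice *Nefh* was at 15.9 ± 2.30 CPM per kilobase (SD, n = 5).

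The summed CPM of the 4 genes was alike, at 1157 ± 118 in KO and 1162 ± 65.3 in WT mice (SD, n = 5 each), with KO mouse 5 lowest at 965.7. Within that sum *Nefh* made up 5.46% ± 0.335 of the counts in KO and 7.05% ± 0.219 in WT mice (SD, n = 5 each). Its share was 4.90% to 5.71% in KO and 6.77% to 7.29% in WT mice, without overlap, and the KO mean was 5.61% without KO mouse 5. The share of *Nefh* also rests on the contrast that chose it. The shares of *Nefm* (26.9% in KO and 25.8% in WT), *Nefl* (46.3% and 45.3%) and *Ina* (21.3% and 21.9%) overlapped between the groups.

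Ratios of counts within a library do not depend on how libraries are scaled, and the counting error of a ratio was 0.981% to 2.45%. The ratio of *Nefh* to *Nefm*, the 2 subunits with KSP tails, was 0.200, 0.207, 0.213, 0.210 and 0.185 in KO mice 1 to 5. In WT mice 1 to 5 it was 0.279, 0.247, 0.265, 0.293 and 0.285. Every KO value lay below every WT value, with means of 0.203 ± 0.0113 and 0.274 ± 0.0183 (SD, n = 5 each) and a difference in mean log2 ratio of -0.43. How often ratios of other genes separate the groups was not examined. The ratio of *Nefh* to *Nefl* was 0.118 ± 0.0110 in KO and 0.156 ± 0.00388 in WT mice (SD, n = 5 each), a log2 difference of -0.40, and KO mouse 5 was lowest at 0.0997. The ratio of *Nefh* to *Ina* was 0.257 ± 0.00585 in KO and 0.323 ± 0.0183 in WT mice (SD, n = 5 each), a log2 difference of -0.33. KO mice spanned 0.251 to 0.265 in this ratio and KO mouse 5, at 0.252, sat among them, as both of its transcripts were low.

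Without KO mouse 5 the 3 log2 differences were -0.40, -0.34 and -0.32 for *Nefm*, *Nefl* and *Ina* as the denominator, and without KO mouse 3 they were -0.45, -0.42 and -0.32. In mice of high RIN they were -0.39, -0.35 and -0.35 and in mice of low RIN -0.49, -0.48 and -0.29. These are descriptions, since they rest on the contrast that chose *Nefh*.

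The 3 ratios without *Nefh* could be tested. *Nefm* to *Nefl* was 0.582 ± 0.0273 in KO and 0.570 ± 0.0341 in WT mice (SD, n = 5 each, log2 difference 0.03, exact two-sided permutation test, p = 0.476, adjusted over the 3 ratios 0.476). *Ina* to *Nefl* was 0.460 ± 0.0392 and 0.484 ± 0.0209 (SD, n = 5 each, log2 difference -0.07, exact permutation p = 0.294, adjusted 0.44). *Ina* to *Nefm* was 0.790 ± 0.0409 and 0.851 ± 0.0767 (SD, n = 5 each, log2 difference -0.10, exact permutation p = 0.167, adjusted 0.44). The groups overlapped in all 3, and none passed the test. The smallest p that 5 mice against 5 allow is 0.00794.

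**Figure D2:**
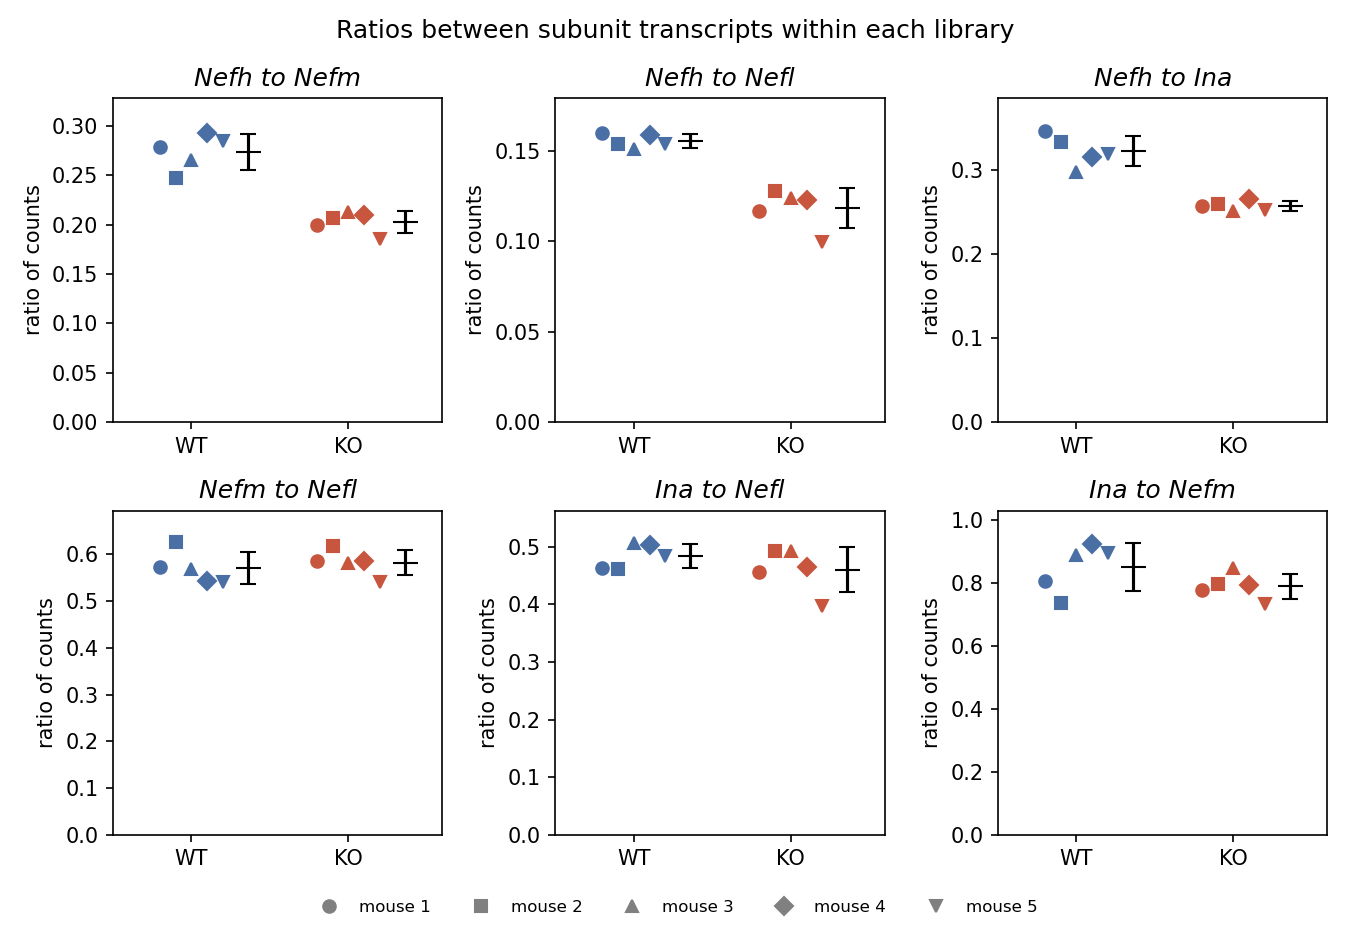
Ratio of counts between pairs of transcripts in each library, with WT mice in blue, KO mice in red and the mean ± SD of 5 mice in black. In the upper row, with *Nefh* over *Nefm*, *Nefl* and *Ina*, the KO values lie below all WT values (for *Nefm*, 0.185 to 0.213 against 0.247 to 0.293), and in the lower row, without *Nefh*, the groups overlap. The upper row rests on the contrast that chose *Nefh*.

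Whether the subunits vary together from mouse to mouse was tested with the genotype means removed, so that the contrast that chose *Nefh* does not enter. The measure was the deviation of log2(CPM + 1) from the genotype mean over the 10 mice, with exact permutation tests over all 14400 orders of mice within genotype. *Nefh* varied with *Nefl* (Pearson r = 0.860, exact p = 6.94e-05, the smallest these orders allow, adjusted over 6 pairs 0.000417, Spearman rho = 0.939, exact p = 6.94e-05, adjusted 0.000417). *Nefh* varied with *Nefm* (r = 0.858, exact p = 0.0016, adjusted 0.00319, rho = 0.891, exact p = 0.0016, adjusted 0.00479). *Nefm* varied with *Nefl* (r = 0.914, exact p = 0.00118, adjusted 0.00319, rho = 0.855, exact p = 0.00375, adjusted 0.0075), a pair whose exons overlap. KO mouse 2 (above its group mean for *Nefh* and *Nefm*, below it for *Nefl*) and WT mouse 4 (above it for *Nefh*, below it for the other two) went against these relations in sign. With the 2 mice farthest from the median of the first gene left out, these r were 0.870 (exact p = 0.00521), 0.891 (exact p = 0.0139) and 0.815 (exact p = 0.033). Without KO mouse 5 alone *Nefh* with *Nefm* had r = 0.786 and an adjusted exact p of 0.0778.

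The pairs with *Ina* rested on few mice. *Ina* gave r = 0.935 with *Nefh* (exact p = 0.0232, adjusted 0.0232, rho = 0.794, exact p = 0.0249, adjusted 0.0374), 0.759 with *Nefm* (exact p = 0.0185, adjusted 0.0223, rho = 0.612, exact p = 0.0451, adjusted 0.0451) and 0.773 with *Nefl* (exact p = 0.0107, adjusted 0.016, rho = 0.612, exact p = 0.0322, adjusted 0.0386). With the 2 farthest mice left out, KO mouse 5 in each case, r was 0.5 (exact p = 0.215), 0.230 (exact p = 0.655) and 0.455 (exact p = 0.296), so these relations no longer held. Relative to its genotype mean, KO mouse 5 was at -0.40 for *Nefh*, -0.27 for *Nefm*, -0.17 for *Nefl* and -0.38 for *Ina* on the log2 scale.

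**Figure D3:**
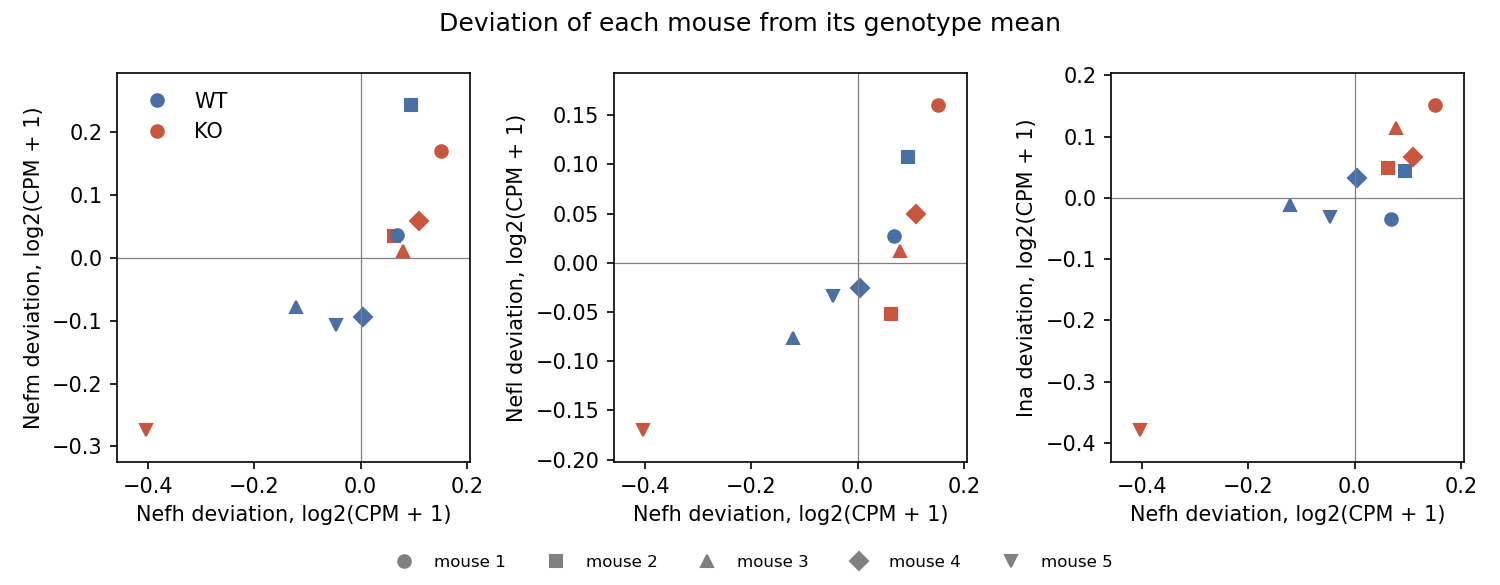
Deviation of log2(CPM + 1) from the genotype mean in each mouse, for *Nefh* on the horizontal axis and *Nefm*, *Nefl* or *Ina* on the vertical axis, with WT mice in blue and KO mice in red. KO mouse 5 lies at the lower left of each panel (-0.40 for *Nefh*), and without it the points for *Nefm* and *Nefl* still rise together (r = 0.786 and 0.841), whereas those for *Ina* do so less (r = 0.423).

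Among 9921 genes with a mean of at least 10 CPM, those whose deviations were most like those of *Nefh* over the 10 mice were *Pum2* (r = 0.989), *Rims3* (0.982), *Sec63* (0.979), *Zfp106* (0.972) and *Ppp4r2* (0.972). *Pum2* encodes an RNA-binding protein, *Rims3* a presynaptic active zone protein and *Sec63* a component of protein translocation into the endoplasmic reticulum. In that order *Ina* stood at place 31, *Nefl* at 203 and *Nefm* at 210. The order depended on KO mouse 5, without which the r of the 5 genes was 0.793 to 0.925 and *Pum2* stood at place 18. None of the 5 passed the KO against WT test (adjusted p from 0.61 to 0.932 in edgeR's test).

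Genes that move, modify and anchor neurofilaments, and markers of the cells that express them, were then read from 11 lists of 120 genes, of which 118 were tested. The count called in edgeR's test was 0 of 118, against 0.844% of all genes tested. An unadjusted p under 0.05 in edgeR's fit was reached by 28 of them, 22 with higher and 6 with lower fitted levels in KO mice, where 10.6% of all genes tested reached it, 5.51% with higher and 5.1% with lower levels. DESeq2 called 6: *Camk2a*, *Crym*, *Gpr6*, *Rbfox3* and *Tac1* as higher and *Ermn* as lower, where it called 1.6% of all genes. The log2 fold changes lay between -0.33 and 1.22, and *Opalin*, an oligodendrocyte gene, was the single gene of the 118 with a lower log2 fold change than *Nefh* (-0.33, adjusted p = 0.349 in edgeR's test). Of the 118 genes, 5 (4.24%) had a larger absolute log2 fold change than *Nefh*. Since *Nefh* was chosen for its low level, its place in either order is not a result, and this share is not a p-value.

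Other intermediate filament genes had no call among 11 tested and a median log2 fold change of 0.05, against -0.00435 over all genes tested. *Gfap*, the astrocyte filament, was at 138 ± 39.9 CPM in KO and 120 ± 8.89 in WT mice (SD, n = 5 each), *Synm*, which encodes synemin, at 56.2 ± 4.16 and 52.0 ± 3.63, and *Krt222* at 60.1 ± 4.56 and 64.8 ± 5.18. The motors that carry neurofilaments along axons had 0 of 9 called and a median of 0.02. *Kif5a*, the kinesin heavy chain tied to neurofilament transport, was at 3900 ± 375 CPM in KO and 3969 ± 173 CPM in WT mice (SD, n = 5 each), and *Kif5c* and *Klc1* had log2 fold changes of 0.02 and 0.03. Kinases and phosphatases that act on the KSP tails, or on other sites of the subunits, had 0 of 17 called and a median of 0.03. Among them *Camk2a* was at 4073 ± 202 CPM in KO and 3742 ± 182 CPM in WT mice (SD, n = 5 each, edgeR adjusted p = 0.0684), and *Mapk10*, which encodes JNK3, had a log2 fold change of -0.0042.

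Linkers and turnover factors had 0 of 14 called and a median of 0.01. *Dst* and *Macf1*, the cytoskeletal cross-linkers, had log2 fold changes of 0.09 and -0.02, and *Uchl1*, an axonal deubiquitinase, -0.02. Axonal microtubule genes, the other cytoskeleton of the axon, had 0 of 12 called and a median of 0.01, with *Map1a*, *Map2* and *Map1b* at 0.09, 0.07 and 0.08. Genes of the axon initial segment and nodes had 0 of 12 called and a median of -0.01, with *Sptan1* and *Ank3*, the spectrin and ankyrin scaffold, at 0.07 and 0.09. 

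Cell types known for high *Nefh* were read from their markers. The 8 markers of parvalbumin interneurons, fast-spiking cells rich in neurofilaments, had 0 calls, 8 of 8 negative log2 fold changes and a median of -0.09, where that of all genes tested was -0.00435. Their summed CPM was 665.8 to 810.6 in KO and 757 to 916 in WT mice, and KO mouse 5 was lowest. *Pvalb* was at 42.9 ± 5.54 CPM in KO and 52.6 ± 9.93 CPM in WT mice (SD, n = 5 each, edgeR adjusted p = 0.446), *Kcnc1* at 234 ± 13.1 and 260.2 ± 23.0 CPM and *Vamp1* at 160.4 ± 20.8 and 188 ± 24.6 CPM. The log2 fold changes of *Kcnc1* and *Vamp1* were -0.11 and -0.10, and -0.15 and -0.23 without surrogate variables, where the list again had 0 calls. The 8 markers of layer 5 extratelencephalic neurons, the large long-range projection cells, had 0 calls, 7 of 8 positive values and a median of 0.18. Their summed CPM was 355.8 to 413.6 in KO and 313 to 374 in WT mice. *Crym* was at 74.4 ± 14.0 CPM in KO and 53.8 ± 11.8 CPM in WT mice (SD, n = 5 each, edgeR adjusted p = 0.128), *Bcl11b* at 77.8 ± 2.88 and 73.3 ± 8.98 CPM and *Ldb2* at 62.6 ± 10.5 and 65.0 ± 10.1 CPM. Their log2 fold changes were 0.27, 0.07 and -0.07, and 0.47, 0.09 and -0.06 without surrogate variables, where this list too had 0 calls. The median of 0.18 comes from the fit with surrogate variables and was not taken without them. Mean CPM in KO and WT mice was 46.9 and 41.5 for *Fezf2*, 46.0 and 43.9 for *Pou3f1* and 33.4 and 31.7 for *Bcl6*. It was 19.1 and 18.6 for *Npr3* and 15.9 and 14.1 for *Chst8*. The fitted log2 fold changes of these genes, in that order, were 0.18, 0.18, 0.17, 0.07 and 0.21. No gene of either list was at 0 in any mouse, and their part in the level of *Nefh* was not tested. The genes of each list were read in the same mice, so their signs are not separate observations.

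General neuron markers had 0 of 8 called, with sums of 8823 to 9946 CPM in KO and 9680 to 10030 CPM in WT mice and a median log2 fold change of 0.00. *Snap25*, *Syt1* and *Slc17a7*, which encode proteins of the synaptic terminal, had log2 fold changes of -0.07, 0.02 and 0.05. Without surrogate variables these were -0.15, 0.01 and 0.10. Oligodendrocyte markers had 0 of 10 called and a median of -0.05, with sums of 6510 to 9402 CPM in KO and 6716 to 8447 CPM in WT mice, and KO mouse 5 was lowest. The myelin genes *Mbp* and *Mobp* had log2 fold changes of -0.04 and 0.00. Markers of striatal projection neurons, cells that should be scarce in PFC, had 0 of 9 called, a median of 0.21 and sums of 329 to 493 CPM in KO and 298 to 594 CPM in WT mice. WT mouse 5 held the highest sum. Without it 4 of these markers were called as higher in KO mice, where 90 of 14423 genes tested were called. With DESeq2, and in edgeR without the filter on low counts, 2 were called as higher, where 229 and 134 genes were called. *Ppp1r1b* and *Pde10a* had log2 fold changes of 0.21 and -0.01. The part of these cell types in the level of *Nefh* was not tested. With the striatal score in place of the surrogate variables, the log2 fold change of *Nefh* was -0.33 (standard error 0.09).

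**Figure D4:**
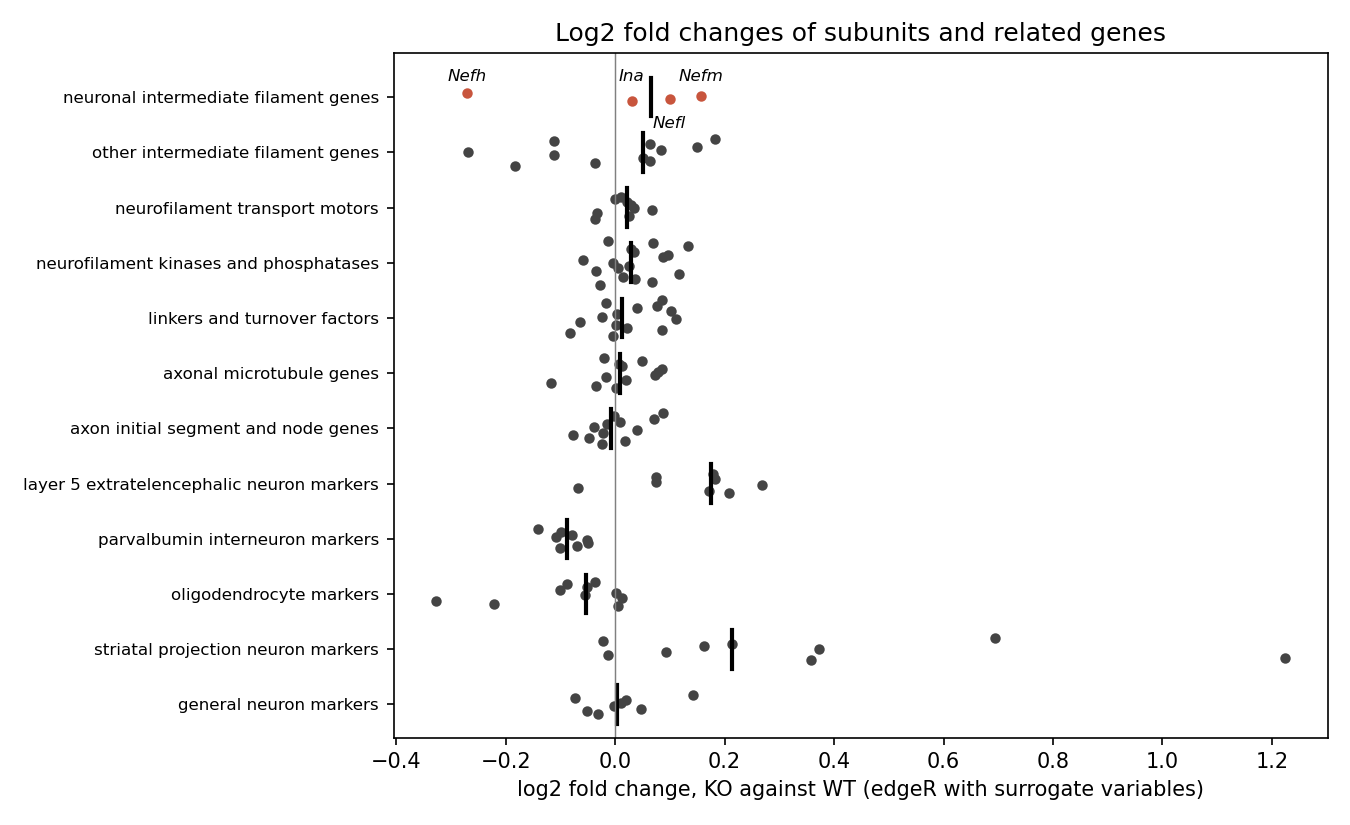
Log2 fold change of each gene in KO against WT mice, from edgeR with 3 surrogate variables, for the 4 subunit genes (red) and 11 lists of related genes (grey), with the median of each list as a black bar. *Nefh* (-0.27) lies left of the other 3 subunits (0.03 to 0.16), and the medians of the lists run from -0.09, for the parvalbumin interneuron markers (8 of 8 negative), to 0.21, for the striatal markers (7 of 9 positive). The genes of a list were read in the same mice, so their signs are not separate observations.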

How the data were processed

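The authors aligned paired reads of 101 bases to mm10 with STAR (2.7.1a, per the submitters' processing notes) and counted, with HTSeq (0.9.1), the uniquely mapped ones on protein-coding exons (GENCODE M21). They deposited raw counts per gene, without normalization, for 10 mice. Members and lists were chosen with earlier results of these data known. Groups come from the labels, which do not say whether mice of a group shared a litter.

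Counts were tested with edgeR 4.0.16 (R 4.3.3): its filter on low counts, TMM, 3 surrogate variables (sva 3.50.0, seed 1, on log2(CPM + 1) values), the quasi-likelihood test and Benjamini-Hochberg adjustment over 14344 genes, threshold 0.05. DESeq2 1.42.0 was an alternative. Ratios and correlations used exact permutation tests (scipy 1.17.1, pandas 2.3.3 and numpy 2.4.6 in Python 3.11.15), and figures matplotlib 3.10.9. Named list genes are up to 3 with the highest mean CPM in each list, and those called, and some of these genes and 1 sequence are not reported here. Genes named beyond that (*Pvalb*, *Opalin*, *Ermn*, *Gpr6*, *Tac1*, *Rbfox3*, *Fezf2*, *Pou3f1*, *Bcl6*, *Npr3* and *Chst8*) were chosen after their values were seen. *Eppk1* did not pass the filter and *Drd1* was not analysed here. The floors and the counting error of the ratios cover counting error only, since reads carry no molecular identifiers. Each ± is the SD between mice. The standard errors are the absolute log2 fold change divided by the square root of F from edgeR's quasi-likelihood test. For *Nefh* they are a description and not a test. Sequences and positions come from GENCODE M21 on GRCm38.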

Additional observations from a re-analysis of the deposited data

Results flagged for a closer look

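In KO mice *Nefh* was lowest in KO mouse 5, at 47.3 CPM against 65.8 to 69.9 CPM in the other 4, a gap of 0.816 of the range (critical value 0.71). *Ina* was lowest in the same mouse, at 188 CPM against 253 to 272 CPM, a gap of 0.776 of the range. Of 20 groups of values examined this way 2 had a mouse that stood apart, where chance gives about 1 in 20. Both were KO mouse 5, so they are not separate events, and a rate for separate groups does not bear on them. KO mouse 5 had the lowest RIN, the deepest library and of all 10 mice the lowest sums of the motor, linker, parvalbumin interneuron and oligodendrocyte lists and the highest sums of the kinase and phosphatase list and the axonal microtubule list. The part of these in its *Nefh* and *Ina* levels was not tested.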

How the results depend on the processing

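The log2 fold change of *Nefh* stayed negative under every alternative run, between -0.38 and -0.23. As *Nefh* was chosen by its lower level in these same mice, this kept sign is not a result. *Ina* turned to -0.0408 without surrogate variables, -0.0433 with RIN as covariate and -0.0519 with the replicate block, and the log2 difference in the ratio of *Ina* to *Nefl* turned to 0.00302 in mice with a RIN of 9.5 or above. The log2 fold changes of *Nefm* and *Nefl*, 0.157 and 0.0994 as reported, were 0.0522 and 0.0248 without surrogate variables, 0.0534 and 0.0257 with RIN and 0.0515 and 0.0222 with the replicate block. *Nefm* passed the threshold with DESeq2 (log2 fold change 0.16, DESeq2 adjusted p = 0.0164) and with 1 of 3 mice left out (KO mouse 2, KO mouse 5 or WT mouse 2).

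Genes called numbered 121, and 30 without surrogate variables, 34 with 1, 57 with 2, 38 with RIN, 7 with the striatal score, 229 with DESeq2, 1 in mice of high RIN, and 24 with the replicate block. The labels do not say whether replicate numbers pair the mice. Deviations of KO and WT mice with the same number correlated at -0.106 to 0.173, which cannot settle it. Under the block the log2 fold change of *Nefh* was -0.38 with a standard error of 0.07, against 0.09 without block or surrogate variables.

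With single mice left out there were 39 to 248 genes called, and log2 fold changes of -0.291 to -0.229 for *Nefh*, 0.142 to 0.199 for *Nefm*, 0.0691 to 0.118 for *Nefl* and 0.00269 to 0.051 for *Ina*. It gave r of 0.786 to 0.940 for *Nefh* with *Nefm*, 0.841 to 0.919 for *Nefh* with *Nefl*, 0.840 to 0.956 for *Nefm* with *Nefl*, 0.423 to 0.966 for *Nefh* with *Ina*, 0.492 to 0.881 for *Nefm* with *Ina* and 0.667 to 0.822 for *Nefl* with *Ina*. The causes were not tested.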
